A study of Mus musculus with 11 samples.

Results

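The genes described here are the mouse zinc finger genes whose symbol is Zfp followed by a number in the range Zfp600 to Zfp999 and no other letters. They were taken from the platform annotation of the array, using only transcript clusters (the probe sets that the array reads as a unit) that carry 1 gene symbol, whatever their values. This gave 139 genes of the 19935 measured, read by 150 clusters, with 1 cluster for 131 genes and several for 8. A further 20 genes in this number range were named only by clusters with several symbols and are not analysed here. The genes lie on many chromosomes, with 33 on chromosome 7, 19 on chromosome 17, 14 on chromosome 8 and 9 on chromosome 4.

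RNA of mouse embryonic stem cells (ESCs) was hybridised to 11 Affymetrix whole-transcript arrays, which cover 2 genotypes in 2 media. Control cells were wild-type ESCs of the E14 line, and mutant cells were labelled Bmpr1a-/-, whose disrupted gene encodes a receptor for bone morphogenetic proteins. Both were sampled in ESC medium and after 3 days in N2B27, which lacks serum and lets ESCs leave naive pluripotency. There were 3 control and 2 mutant arrays in ESC medium, the latter numbered 2 and 3, and 3 control and 3 mutant arrays in N2B27. The mutant cells came from lines named C1-6, Fr124 and Fr88, and the labels do not say which line is on which array. Whether a group's arrays stem from different cultures is not given either, and p-values then reflect only how these arrays scatter, which may be technical.

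Zinc finger genes of this kind mostly encode DNA-binding proteins with tandem C2H2 fingers, and many of them carry a KRAB domain at the front of the protein. The KRAB domain recruits the corepressor Trim28, which brings the histone methyltransferase Setdb1 and other silencing enzymes to the bound DNA. In ESCs and the early embryo such proteins are known for keeping endogenous retroviruses and other repeats silent, and their genes stand in dense genomic clusters that have grown by repeated duplication.

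Expression is given as centred log2 values: each cluster had been set relative to a baseline of its own before deposit. A value of 0 therefore marks that baseline and not absence, brightness is lost, and levels of different genes cannot be ranked. Differences between groups are log2 differences of group means with the moderated standard error (SE) of limma, and a gene was called higher or lower where its Benjamini-Hochberg adjusted p over all 19935 genes was under 0.05. Between groups of these bulk samples, fewer cells that express a gene and less RNA per cell cannot be told apart. All 12 ESC markers examined (among them Pou5f1, Nanog, Esrrb and Zfp42) fell with N2B27 in both genotypes. Their mean per array was 1.01 to 1.30 in control and 1.60 to 1.63 in mutant cells in ESC medium, and -0.883 to -0.709 in control and -0.324 to -0.267 in mutant cells in N2B27. The genotypes did not overlap in either medium, and 4 of the 12 markers were called higher in the mutant in each. The mutant arrays also differed from the control arrays in line identity. In ESC medium the difference was -4.18 log2 for Eif2s3y of the Y chromosome and 5.59 log2 for Hprt. Genotype and line therefore cannot be told apart in any comparison of mutant with control cells. Since the mutant lines are not placed on arrays, and the mutant N2B27 array numbered 1 has no ESC medium array of that number, line may also be mixed with medium in mutant cells and in the interaction. Bmpr1a itself differed by -0.70 log2 in N2B27 (SE 0.09, adjusted p = 0.00211) and by -0.27 log2 in ESC medium, where it was not called (SE 0.10, adjusted p = 0.145).

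Moving from ESC medium to N2B27 changed 36.0% and 36.7% of these zinc finger genes in control and mutant cells, and the largest changes were falls. In control cells 15 of the 139 genes rose and 35 fell; of all genes, 26.1% were called in that comparison, 12.8% higher and 13.3% lower. In Bmpr1a-/- cells 24 rose and 27 fell, where 25.2% of all genes were called, 14.9% higher and 10.3% lower. The median difference over the 139 genes was -0.06 log2 in control and 0.03 in mutant cells, beside 0.02 and 0.01 over all genes. Falls exceeded 1 log2 for 9 genes in each genotype, and rises did so for 2 genes in each. The shares of all genes beyond 1 log2 were not counted, so these counts describe the members alone. Quantile normalization of the deposited values changed the split in mutant cells to 13 higher and 26 lower, so that 33.3% of the calls were rises in place of 47.1%. Without the mutant ESC array numbered 2, 23 genes were called in mutant cells in place of 51. The fall of the ESC markers ran alongside these changes, and its part in them was not tested.

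The 2 media comparisons share no arrays, and no gene was called in opposite directions in them. In both genotypes 24 genes fell, which is 68.6% of the genes that fell in control and 88.9% of those that fell in mutant cells. In both genotypes 13 genes rose, which is 86.7% of the control rises and 54.2% of the mutant rises. Across the 139 genes the differences in the 2 genotypes had a Pearson r of 0.938 and a Spearman rho of 0.849. These describe genes, which are not independent replicates. Over all genes r was 0.787, and no Spearman rho was computed there. The members include a few large falls, such as those of Zfp640 and Zfp980, whose weight in the Pearson r was not tested. A further 75 genes were called in neither genotype. Shared calls and genes called in neither were not counted over all genes, so these shares describe the members alone.

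**Figure D1:**
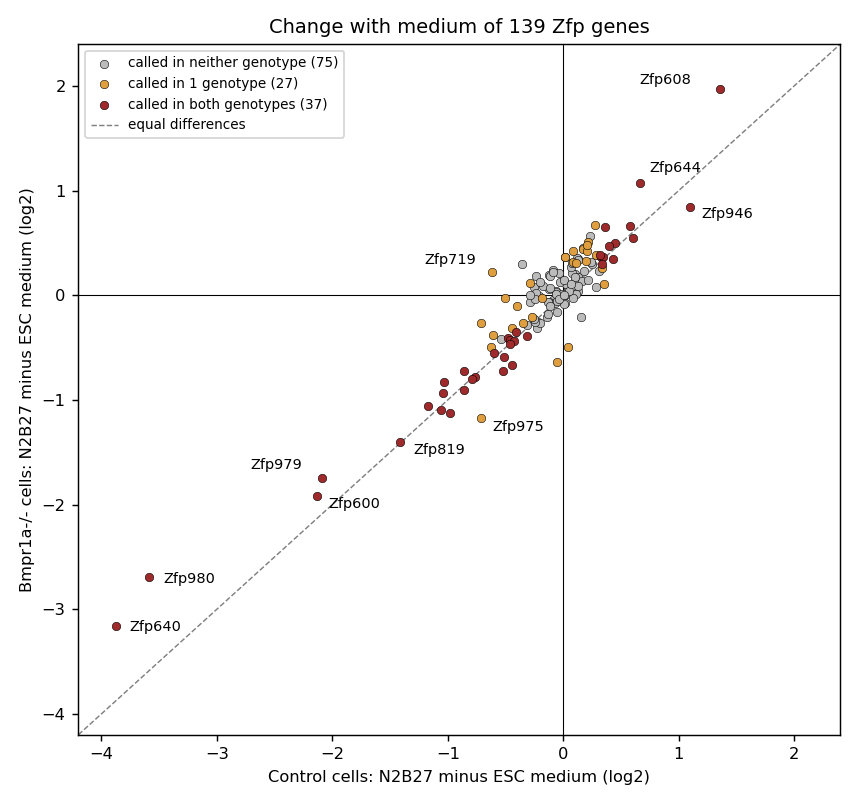
Each point is 1 of the 139 Zfp genes, placed by its N2B27 minus ESC medium difference (log2) in control cells on the x axis and in Bmpr1a-/- cells on the y axis, with colours for genes called in neither, 1 or both genotypes. Zfp640 and Zfp980 lie far out at the lower left, Zfp608 at the upper right, and Zfp719 stands off the dashed line of equal differences, at -0.62 in control and 0.22 in mutant cells.

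The largest group of falls lay in 1 run of neighbouring zinc finger genes on chromosome 4, from Zfp990 to Zfp933, a part of the genome known for a recently expanded family of KRAB zinc finger genes. Of its 16 numbered Zfp genes 7 were measured, and 6 of these fell in both genotypes: Zfp980, Zfp600, Zfp979, Zfp982, Zfp991 and Zfp985. Near-identical copies stand side by side here, and the array's probes may bind more than 1 of them, so the values of single genes in this run are uncertain. The 160 bases before the start of transcription are shown for the 5 falling genes found in the promoter table, because the genes share stretches of sequence there, and for Zfp933, the measured member of the run that was not called. The sequences are from RefSeq (GRCm38.p6), written 5′ to 3′ on the gene's strand, and capitals mark each stretch of at least 15 bases common to all 5 falling genes.
Zfp980, chr4:145670537-145670696, plus strand: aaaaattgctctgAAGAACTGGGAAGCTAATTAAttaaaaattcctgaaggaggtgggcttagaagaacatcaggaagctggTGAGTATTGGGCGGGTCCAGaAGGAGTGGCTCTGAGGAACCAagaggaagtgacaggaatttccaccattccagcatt
Zfp600, chr4:146156667-146156826, plus strand: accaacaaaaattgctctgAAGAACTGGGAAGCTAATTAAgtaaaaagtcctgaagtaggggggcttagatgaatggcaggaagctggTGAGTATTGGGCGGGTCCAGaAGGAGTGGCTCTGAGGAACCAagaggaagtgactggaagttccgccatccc
Zfp979, chr4:147642509-147642668, minus strand: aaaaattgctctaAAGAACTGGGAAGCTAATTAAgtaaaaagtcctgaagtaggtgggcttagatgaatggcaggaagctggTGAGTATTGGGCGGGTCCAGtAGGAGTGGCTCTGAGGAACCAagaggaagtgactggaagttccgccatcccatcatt
Zfp982, chr4:147492257-147492416, plus strand: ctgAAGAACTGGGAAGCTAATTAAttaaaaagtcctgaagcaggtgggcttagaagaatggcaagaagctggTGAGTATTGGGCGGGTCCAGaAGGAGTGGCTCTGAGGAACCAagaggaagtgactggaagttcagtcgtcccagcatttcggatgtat
Zfp985, chr4:147553117-147553276, plus strand: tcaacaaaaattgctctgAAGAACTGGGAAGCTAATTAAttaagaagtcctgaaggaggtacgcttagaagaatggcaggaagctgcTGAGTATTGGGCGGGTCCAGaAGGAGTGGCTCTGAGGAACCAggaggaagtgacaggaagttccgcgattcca
Zfp933, chr4:147848419-147848578, minus strand: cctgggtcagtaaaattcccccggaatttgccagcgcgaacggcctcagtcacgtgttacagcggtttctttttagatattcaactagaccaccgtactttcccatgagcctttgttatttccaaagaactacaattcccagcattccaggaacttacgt

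The 5 promoters shown shared 3 such stretches, of 21, 20 and 21 bases, which make up 62 of the 160 bases in each. Zfp600 has 2 promoters in the promoter table and Zfp982 has 3. For each of these genes only 1 promoter, the one shown, holds the first stretch. Over the 250 bases before the start, aligned in pairs, identity was 78.1% to 93.8% within the 5 genes and 45.1% to 48.9% between each of them and Zfp933. The first stretch, AAGAACTGGGAAGCTAATTAA, was searched on both strands in the table's promoters (from 250 bases before to 50 after the start). It was found in 9 of 27025 genes (0.0333%), all on chromosome 4, of which 8 belong to the run from Zfp990 to Zfp933. Of those 9 genes 5 were measured, and they are the 5 genes shown. All 5 promoters hold GGGCGG, the core of a GC box, and GGAAGTG, a match to the usual core bound by ETS factors. GGGCGG was found on either strand in 38.2% of all genes and in 61 of the 121 member genes with a promoter in the table (50.4%), and it lies within the 20-base stretch. GGAAGTG was found in 12.5% of all genes and in 37 of the 121 member genes (30.6%). A match describes the letters only.

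Zfp980 had the steepest fall of the run. Its values in control cells were 1.89, 1.43 and 1.30 in ESC medium and -0.77, -2.81 and -2.56 in N2B27, and in mutant cells 2.00 and 1.46 against 0.00, -1.37 and -1.54. Every ESC medium array lay above every N2B27 array, and array 1 was the highest in N2B27 in both genotypes. The difference was -3.59 log2 in control (adjusted p = 0.000943) and -2.70 in mutant cells (adjusted p = 0.00772). Without the mutant ESC array numbered 2 the mutant difference was -2.42 and no longer called (adjusted p = 0.078).

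Zfp600 read 1.38, 1.04 and 1.08 in control cells in ESC medium and -0.57, -1.07 and -1.25 in N2B27. In mutant cells it read 2.11 and 1.59 in ESC medium and 0.77, -0.53 and -0.45 in N2B27. The groups did not overlap in either genotype, and the mutant N2B27 array numbered 1 again stood highest in its group. Zfp600 had a difference of -2.13 log2 in control (adjusted p = 0.000985) and -1.92 in mutant cells (adjusted p = 0.00305).

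Zfp979 read 0.97, 0.44 and 0.48 in control ESC medium, -1.18, -1.65 and -1.58 in control N2B27, 1.2 and 1.03 in mutant ESC medium and 0.00, -0.88 and -0.99 in mutant N2B27. Its difference was -2.09 log2 in control (adjusted p = 0.000275) and -1.74 in mutant cells (adjusted p = 0.00132), with no overlap. The other falls of the run were smaller. Zfp982 had differences of -1.04 in control (adjusted p = 0.00735) and -0.93 in mutant cells (adjusted p = 0.0217), and its mutant call was lost without the mutant ESC array numbered 2 (-0.49, adjusted p = 0.243) and without the mutant N2B27 array numbered 3 (-0.85, adjusted p = 0.0697). For Zfp991 they were -0.79 and -0.80, and for Zfp985 -0.77 and -0.78, all called. The 3 clusters of Zfp985 gave control differences of -0.63, -0.79 and -0.87. Zfp933, whose promoter lacks the shared stretches, had differences of -0.24 in control (adjusted p = 0.353) and -0.26 in mutant cells (adjusted p = 0.375). It was called lower in mutant cells without the mutant N2B27 array numbered 1 (-0.47, adjusted p = 0.0138) and with array weights (-0.54, adjusted p = 0.0109), and in control cells with the compared groups alone (adjusted p = 0.0376).

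Zfp640 had the largest fall of all 139 genes in both genotypes, and ranked 5 among the decreases of all genes measured in control cells and 10 in mutant cells. The annotation's gene identifier is not in the RefSeq table, and the gene was placed on chromosome 13 by its symbol alone. Control cells read 2.25, 1.55 and 1.37 in ESC medium and -1.77, -2.38 and -2.32 in N2B27. Mutant cells read 2.79 and 2.07 in ESC medium and 0.00, -1.07 and -1.12 in N2B27. The media did not overlap, and all mutant N2B27 arrays lay above all control N2B27 arrays. It fell by 3.88 log2 in control (SE 0.34, adjusted p = 6.21e-05) and its mutant difference was -3.16 (SE 0.38, adjusted p = 0.000272). Its 3 clusters gave -3.48, -4.09 and -4.07 in control cells. The promoter of the gene of that symbol is shown for comparison with the chromosome 4 genes, which fell with it.
Zfp640, chr13:66680804-66680963, minus strand: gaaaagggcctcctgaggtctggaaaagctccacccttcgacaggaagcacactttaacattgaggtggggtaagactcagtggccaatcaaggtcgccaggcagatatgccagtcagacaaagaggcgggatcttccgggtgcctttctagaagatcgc
It holds none of the 3 shared stretches, and its 250 bases before the start were 41.6% to 46.2% identical to those of the 5 chromosome 4 genes.

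Some other members known from ESCs or from retroviral silencing fell in both genotypes too, whereas Zfp708, which binds a class of retrotransposons, was not called with medium in either. Zfp819, a KRAB protein described as binding Trim28 in ESCs, stood in ESC medium at 1.47, 0.91 and 0.98 on the control arrays and at 1.27 and 1.42 on the mutant arrays. Its N2B27 values were -0.40, -0.30 and -0.19 in control and 0.00, -0.09 and -0.08 in mutant cells. Its difference was -1.42 log2 in control (adjusted p = 7.06e-05) and -1.40 in mutant cells (adjusted p = 0.000117), with every ESC medium array above every N2B27 array. Zfp809 recognises the primer binding site of retroviruses and recruits silencing to it in ESCs. In ESC medium it stood at 0.74, 0.34 and 0.00 on the control arrays and at 0.49 and 0.19 on the mutant arrays, and it lay between -0.80 and -0.13 on the 6 N2B27 arrays. Its difference was -1.03 log2 in control (adjusted p = 0.00433) and -0.83 in mutant cells (adjusted p = 0.0221). The mutant call of Zfp809 was lost without the mutant ESC array numbered 2 (-0.68, adjusted p = 0.18), the mutant ESC array numbered 3 (-0.98, adjusted p = 0.0516) or the mutant N2B27 array numbered 3 (-0.68, adjusted p = 0.0735).

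Zfp706, a small zinc finger protein linked to the exit of ESCs from self-renewal, had a difference of -0.46 log2 in control (adjusted p = 0.0129) and -0.42 in mutant cells (adjusted p = 0.0333). Its 2 clusters gave -0.65 and -0.28 in control cells. The control call was lost without the control N2B27 array numbered 1 (-0.39, adjusted p = 0.0514). The mutant call was lost without either ESC array (adjusted p = 0.238 without number 2 and 0.0654 without number 3) and without the N2B27 array numbered 1 or 3 (adjusted p = 0.0556 and 0.0811). Larger falls in both genotypes were those of Zfp710, with -1.18 log2 in control and -1.06 in mutant cells, of Zfp654, with -1.06 and -1.09, and of Zfp951, with -0.98 and -1.13. For Zfp710 the ESC medium arrays stood at 0.93, 0.74 and 0.76 (control) and 0.85 and 1.18 (mutant), all above its N2B27 arrays at -0.39, -0.40 and -0.31 (control) and 0.00, 0.00 and -0.13 (mutant). The remaining genes that fell in both genotypes included Zfp759 with -0.32 log2 and Zfp850 with -0.60 in control cells.

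Among the rises, Zfp608, known as a repressor of the Rag genes in thymocytes, changed most. Its values were -0.97, -0.44 and -0.57 in control and -1.49 and -1.36 in mutant cells in ESC medium. In N2B27 they were 0.61, 0.78 and 0.71 in control and 0.49, 0.42 and 0.72 in mutant cells, above all ESC medium arrays. The rise was 1.36 log2 in control (adjusted p = 9.26e-05) and 1.97 in mutant cells (adjusted p = 2.09e-05). The values of Zfp946 were -0.90, -0.58 and -0.34 in control ESC medium, 0.09, 0.63 and 0.75 in control N2B27, -0.63 and -0.87 in mutant ESC medium and 0.34, -0.21 and 0.14 in mutant N2B27. It rose by 1.09 log2 in control (adjusted p = 0.00319) and by 0.84 in mutant cells (adjusted p = 0.0214), without overlap. The mutant call of Zfp946 was lost on leaving out either ESC array or the N2B27 array numbered 1 or 3 (adjusted p 0.0594 to 0.15), and under quantile normalization (adjusted p = 0.117).

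Zfp644, a partner of the histone methyltransferases Ehmt1 and Ehmt2, rose by 0.66 log2 in control (adjusted p = 0.000636) and by 1.07 in mutant cells (adjusted p = 8.18e-05). It lay between -0.60 and -0.32 on the 5 ESC medium arrays and between 0.22 and 0.66 on the 6 N2B27 arrays. Zfp687 rose by 0.58 and 0.66, and Zfp746, a repressor of the PGC-1alpha gene also called PARIS, by 0.43 and 0.34. Zfp651 was called in mutant cells alone, with a difference of 0.67 there (adjusted p = 0.00124) and 0.27 in control (adjusted p = 0.059); the interaction was not called (0.40, adjusted p = 0.229). Zfp871 rose by 0.61 in control and by 0.54 in mutant cells (adjusted p = 0.0241). That mutant call was lost when any one of the mutant arrays other than the N2B27 array numbered 2 was left out (adjusted p 0.0537 to 0.124). The other genes called higher in mutant and not in control cells, 11 with Zfp651, rose there by 0.30 log2 (Zfp788) to 0.51 log2 (Zfp688), and the interaction was called for none of the 11. Without the mutant ESC array numbered 2, Zfp688 was not called (adjusted p = 0.0537).

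Several members with described functions were not called or changed little. Zfp703, a corepressor of the NET family, had differences of 0.04 and 0.07 with medium in control and mutant cells, and Zfp708, which binds a class of retrotransposons, -0.07 and 0.04. Zfp711 (X-linked, a partner of the demethylase Phf8) and Zfp827 (which recruits the NuRD complex to telomeres) were called in none of the 5 comparisons. Zfp750, an epidermal differentiation factor, was called in none either, with 0.49 log2 between genotypes in N2B27 (adjusted p = 0.0632). In that comparison it was called once the shared sample numbers entered the model as a block (adjusted p = 0.018) and on leaving out the mutant N2B27 array numbered 3 (0.65, adjusted p = 0.0119). Without that array its medium difference in mutant cells (0.46, adjusted p = 0.0226) and its interaction (0.81, adjusted p = 0.0352) were called too. With medium in control cells it had -0.36 (adjusted p = 0.0802), and was called with the number as a block (adjusted p = 0.0219), with the compared groups fitted alone (adjusted p = 0.0388) and with array weights (-0.42, adjusted p = 0.0124). The mutant N2B27 array numbered 3 is the one mutant N2B27 array at the control level, 0.01 against 0.51 and 0.46. Zfp689 rose by 0.35 in control (adjusted p = 0.0103), with 0.11 in mutant cells (adjusted p = 0.491) and no call for the interaction (-0.24, adjusted p = 0.437). In all, 73 of the 139 genes were called in none of the 5 comparisons, and the corresponding share over all genes was not counted.

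**Figure D2:**
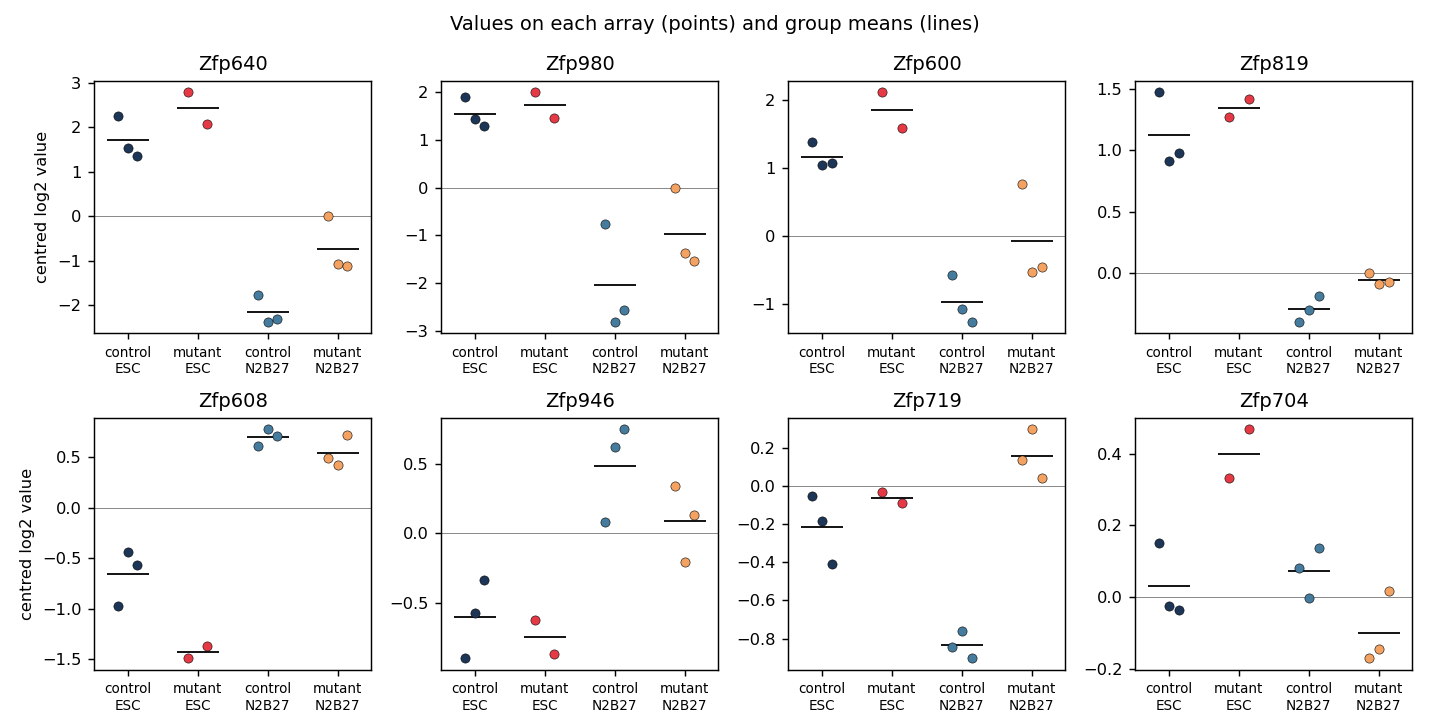
Centred log2 values (y axis) of 8 Zfp genes on each array, by group, with points for arrays and lines for group means; the y axes differ between genes. Zfp640, Zfp980, Zfp600 and Zfp819 lie lower in N2B27 in both genotypes, Zfp608 and Zfp946 lie higher, Zfp719 is low only on the control N2B27 arrays (-0.90 to -0.76), and Zfp704 is highest on the mutant ESC medium arrays.

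Neighbours were compared along 15 genomic runs that hold at least 3 members each, 70 members in all, where at most 5 other protein-coding genes stand between a numbered Zfp gene and the next. Among 87 pairs of adjacent measured Zfp genes in these runs, both genes were called in the same direction in 13 pairs in control cells, in opposite directions in 2, 1 gene alone was called in 41, and neither in 31. In mutant cells the counts were 12, 2, 36 and 37. Of all genes, 26.1% were called in control and 25.2% in mutant cells. The counts include the pairs of the chromosome 4 run, where probes may bind more than 1 gene. Whether neighbours were called together more often than these shares would give was not tested.

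On chromosome 13, the run from Zfp640 to Zfp273 held 6 measured members. Besides Zfp640, Zfp953 fell, with -0.52 log2 in control (adjusted p = 0.006) and -0.72 in mutant cells (adjusted p = 0.00181), as did Zfp759 with -0.32 and -0.39, while Zfp748 had differences of 0.10 and 0.14. Zfp459 in the same run, outside the number range, fell too (-1.48 and -1.27). Of the 15 measured numbered Zfp genes of this run, 2 were called higher and 5 lower in control cells. In mutant cells 0 were called higher and 4 lower. On chromosome 17, the run from Zfp160 to Zfp13 held 12 measured members, of which Zfp946 rose in both genotypes and Zfp942 in mutant cells (0.48, adjusted p = 0.0166). The call of Zfp942 was lost without the mutant ESC array numbered 2 or 3 or the mutant N2B27 array numbered 3 (adjusted p = 0.0692, 0.113 and 0.0564). Its neighbour Zfp229, outside the range, fell (-1.33 and -1.48). Of the 21 measured numbered Zfp genes of this run, 2 were called higher and 2 lower in control cells. In mutant cells 3 were called higher and 2 lower. In the other run of that chromosome, from Zfp871 to Zfp563, members went both ways: Zfp871 and Zfp799 rose in both genotypes, and Zfp870 fell in both (-0.45, adjusted p = 0.0117, and -0.67, adjusted p = 0.0025). On chromosome 6, Zfp746 and Zfp777 rose in both genotypes and Zfp786 was not called (-0.21 and -0.26).

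On chromosome 7, the run from Zfp658 to Zfp819 held 3 measured members with 3 patterns. Zfp819 fell in both genotypes, Zfp658 had differences of -0.14 in control and -0.21 in mutant cells and was not called, and Zfp719 fell in control cells (-0.62) with 0.22 in mutant cells. In the chromosome 7 run from Zfp788 to Zfp715, Zfp975 had -0.72 in control (adjusted p = 0.127) and -1.18 in mutant cells (adjusted p = 0.0309), a call that was lost when either mutant ESC array or the N2B27 array numbered 2 or 3 was left out (adjusted p 0.061 to 0.205). Zfp788 in that run had 0.30 in mutant cells, where it was called higher, and 2 clusters with nearly the same values (0.31 and 0.30). On chromosome 9, Zfp809 fell while Zfp653 rose in mutant cells (0.32) and had 0.20 in control, and on chromosome 10 Zfp781 fell by 0.72 in control (adjusted p = 0.00216), with -0.27 in mutant cells (adjusted p = 0.212).

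Several calls along these runs depend on single arrays. Without the mutant ESC array numbered 2, the mutant medium calls of Zfp653, Zfp746, Zfp759, Zfp777, Zfp788, Zfp799, Zfp850, Zfp985 and Zfp991 were lost (adjusted p 0.0502 to 0.309). Zfp799, Zfp850 and Zfp653 were also not called in mutant cells without the mutant ESC array numbered 3 (adjusted p = 0.0551, 0.0777 and 0.0529). Without the mutant N2B27 array numbered 2 or 3 the mutant calls of Zfp653, Zfp746 and Zfp777 were lost (adjusted p 0.0584 to 0.1), and that of Zfp653 also without number 1 (adjusted p = 0.059). In control cells the fall of Zfp759 was not called without the ESC array numbered 1 or the N2B27 array numbered 1 or 2 (adjusted p 0.0524 to 0.0601). The control rise of Zfp777 was not called without the ESC array numbered 1 or any one of the N2B27 arrays (adjusted p 0.059 to 0.0906). In contrast, Zfp781 was called lower in mutant cells without the mutant N2B27 array numbered 1 (-0.40, adjusted p = 0.0305), and Zfp786 without number 2 (-0.35, adjusted p = 0.0341).

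**Figure D3:**
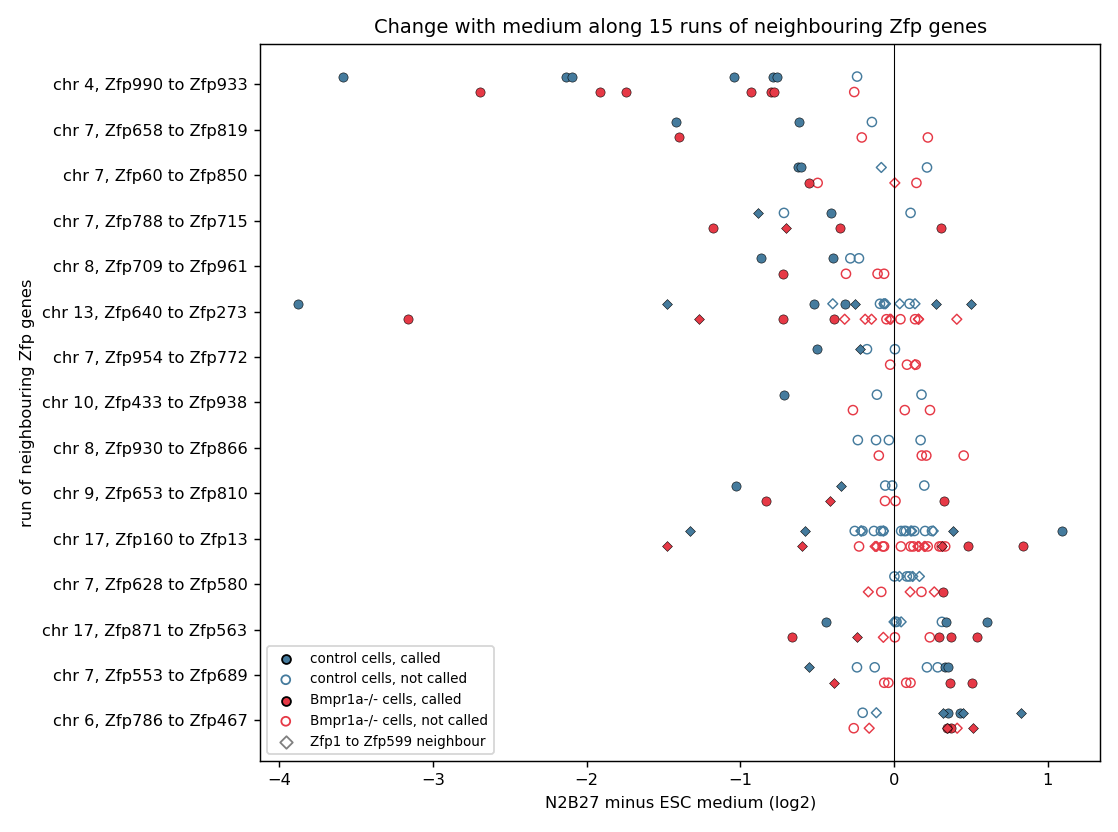
N2B27 minus ESC medium difference (log2, x axis) of the measured numbered Zfp genes in 15 runs of genomic neighbours (rows), in control (blue) and Bmpr1a-/- cells (red), with circles for members, diamonds for Zfp1 to Zfp599 neighbours and filled symbols for called genes. All members of the chromosome 4 run lie below 0 in both genotypes, whereas the chromosome 13 run and the longer chromosome 17 run mix large falls, small differences and rises.

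In ESC medium, mutant against control cells, 2 of the 139 genes were called, 1 higher and 1 lower, where 6.14% of all genes were called, 3.09% higher and 3.05% lower. Zfp608, with the values given above, differed by -0.77 log2 in the mutant (SE 0.15, adjusted p = 0.0129), and both mutant arrays lay below all 3 control arrays. Zfp704 was higher by 0.37 log2 (adjusted p = 0.0337), with 0.33 and 0.47 in mutant and -0.03 to 0.15 in control cells. Both calls depend on single arrays. Zfp608 was not called without the control array numbered 3 (adjusted p = 0.0514) or without the mutant array numbered 2 (-0.71, adjusted p = 0.135) or 3 (-0.83, adjusted p = 0.0632), and under quantile normalization its difference was -0.23 (adjusted p = 0.604). Zfp704 was not called without the control array numbered 2 or 3 (adjusted p = 0.118 and 0.119) or the mutant array numbered 2 or 3 (adjusted p = 0.106 and 0.245). Without the control array numbered 1 the count rose to 6 genes. With median centring the split was 1 higher and 2 lower, and with quantile normalization 0 higher and 2 lower.

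The other 137 genes had differences between -0.44 (Zfp619) and 0.78 log2 (Zfp975), and 24 of the 139 had an unadjusted p under 0.05. Zfp640 had 0.71, Zfp600 0.68 (adjusted p = 0.382) and Zfp819 0.22, none of them called, though Zfp819 was called without the control array numbered 1 (0.40, adjusted p = 0.0253). Some markers of feeder cells or fibroblasts differed with genotype in this medium. In the mutant 4 of 10 were lower (Col1a1, Col1a2, Acta2 and Tagln) and 6 were not called. The mean of the 10 per array was 0.0174 to 0.149 in control and -0.573 to -0.491 in mutant cells. Over the 10 the median difference was -0.05 log2, with values from -2.23 to 0.13, so the list did not move as a whole. The ESC markers, 4 of 12 of them higher in the mutant here, differed with genotype as well, with a median difference of 0.53 log2. Of the neural progenitor markers 1 of 6 was called higher, and the 6 differences ran from -0.84 to 1.18 log2. Their mean per array was -0.183 to -0.0314 in control and -0.0176 to 0.0471 in mutant cells, without overlap. The part of any of these lists in the differences above was not tested.

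In N2B27, 9 genes were called between genotypes, 7 higher and 2 lower in the mutant, which is 6.47% of the 139, where 5.74% of all genes were called, 4.1% higher and 1.64% lower. The same sample numbers deviated together in this comparison. With the number as a block 16 genes were called, 13 higher and 3 lower, among them all 9. The share of all genes called with the block is not given, so this rise in the count may not be particular to the members. Of the 9 genes, 5 lie on chromosome 8, all of them higher in the mutant: Zfp930, Zfp882, Zfp866, Zfp821 and Zfp791. Genes of chromosome 8 were higher in the mutant cells in general, 25.3% of 955 in N2B27 and 15.7% in ESC medium, so 5 of 14 members (35.7%) stands beside a high background. The median difference was 0.32 log2 over the 14 members on chromosome 8 and 0.07 over the 124 that lie outside chromosomes 8, X and Y. In ESC medium the corresponding medians were 0.14 and -0.00, and limma called 0 of the 14 members on chromosome 8, with 2 at an unadjusted p under 0.05.

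Zfp930 and Zfp882, on different runs of chromosome 8, had the largest differences there. In N2B27 Zfp930 stood at -0.39, -0.24 and -0.14 on the control arrays and at 0.41, 0.25 and 0.32 on the mutant arrays, a difference of 0.58 log2 (SE 0.08, adjusted p = 0.00328). Zfp882 stood at -0.63, -0.48 and -0.43 on the control arrays and at 0.05, 0.07 and 0.00 on the mutant arrays, a difference of 0.55 (SE 0.09, adjusted p = 0.00652). Neither overlapped between genotypes, in N2B27 or in ESC medium, where the differences were 0.17 and 0.26 and not called. Zfp866 (0.37, adjusted p = 0.0312), Zfp821 (0.36, adjusted p = 0.0275) and Zfp791 (0.30, adjusted p = 0.0169) had smaller differences. These calls were lost without single N2B27 arrays: Zfp791 without control array 1 or 3 (adjusted p = 0.0547 and 0.0757), Zfp821 without any one of control arrays 1, 2 and 3 or mutant arrays 1 and 3 (0.0554 to 0.11), and Zfp866 without any one of control arrays 1 and 3 or mutant arrays 1, 2 and 3 (0.0507 to 0.092).

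Off chromosome 8, Zfp640 was higher in the mutant by 1.42 log2 (SE 0.34, adjusted p = 0.0404), without overlap. It was not called without any one of control arrays 1, 2 and 3 (adjusted p = 0.0517, 0.125 and 0.14) or mutant array 1 (1.06, adjusted p = 0.0797), nor under quantile normalization (0.83, adjusted p = 0.25). On chromosome 4, Zfp980 had a difference of 1.08 and Zfp600 one of 0.90 (adjusted p = 0.149), neither called; with the number as a block both were called higher (adjusted p = 0.0388 and 0.024). Zfp781 on chromosome 10 had 0.48, not called, and was called with the block (adjusted p = 0.00884). Zfp931 was lower in the mutant (-0.44 log2, adjusted p = 0.0404), as was Zfp799 (-0.31, adjusted p = 0.0261). Zfp931 lost its call without any one of control arrays 1, 2 and 3 or mutant arrays 2 and 3 (adjusted p 0.0639 to 0.124), and Zfp799 without control array 2 or 3 or mutant array 2 (0.053 to 0.106). The count was 4, 5 and 3 genes without control array 1, 2 or 3. The array means of some cell type marker lists differed between genotypes in this medium too. Besides the ESC markers (4 of 12 higher in the mutant), 2 of 6 neural progenitor markers were called higher, with a mean per array of -0.410 to -0.0762 in control and 0.252 to 0.318 in mutant cells. Over these 6 the median difference was -0.03 log2 and the highest 2.01, so the neural list did not move as a whole. Of the trophoblast markers 1 of 6 was called higher, with means of -0.162 to -0.0778 in control and 0.0875 to 0.204 in mutant cells. Neither list overlapped between genotypes, and the part of these markers in the N2B27 differences of the Zfp genes was not tested.

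**Figure D4:**
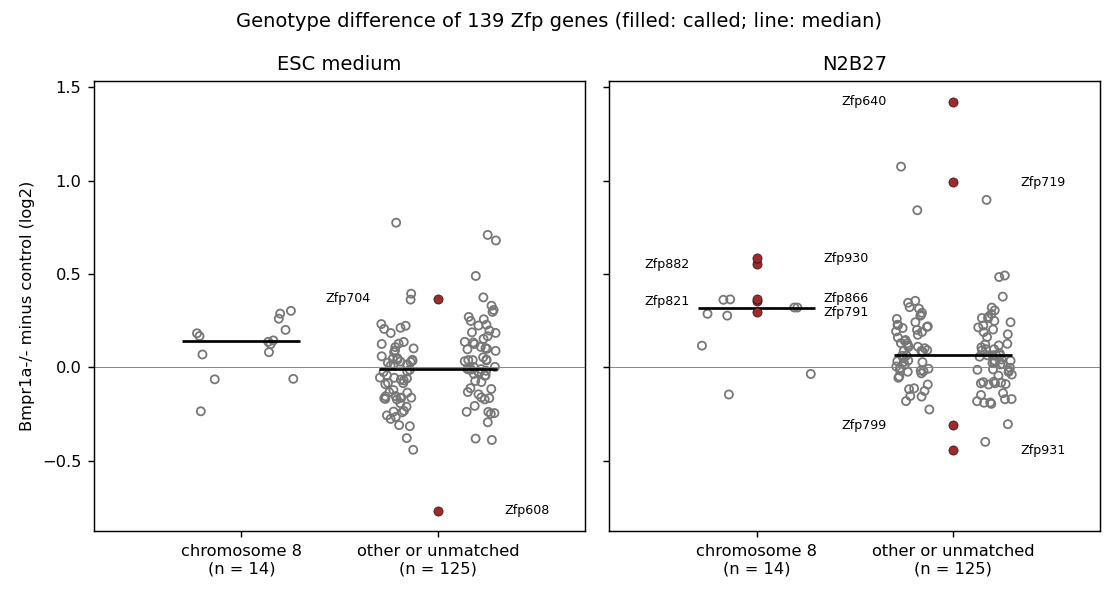
Bmpr1a-/- minus control difference (log2, y axis) of the 139 Zfp genes in ESC medium (left) and N2B27 (right), split into genes on chromosome 8 and all others, with filled points for called genes and lines for medians. In N2B27 the chromosome 8 genes centre at 0.32 log2, and the highest points among the others are Zfp640 (1.42, called), Zfp980 (1.08, not called) and Zfp719 (0.99, called).

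Zfp719, on chromosome 7, was called higher in the mutant in N2B27, and its response to medium differed between genotypes. In ESC medium it stood at -0.05, -0.18 and -0.41 on the control arrays and at -0.03 and -0.09 on the mutant arrays. Its N2B27 values were -0.84, -0.76 and -0.90 in control and 0.13, 0.30 and 0.04 in mutant cells. The 3 control N2B27 arrays lay below all the other arrays. The mutant was higher in N2B27 by 0.99 log2 (SE 0.10, adjusted p = 0.000784) and differed by 0.15 in ESC medium. Zfp719 fell by 0.62 with N2B27 in control cells (adjusted p = 0.0012), with 0.22 in mutant cells (adjusted p = 0.188).

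The interaction (how far the genotype difference in N2B27 exceeds the one in ESC medium) was called for 2 of the 139 genes, 1 higher and 1 lower, where 2.12% of all genes were called, 1.57% higher and 0.552% lower. They were Zfp719 (0.84, SE 0.14, adjusted p = 0.0197) and Zfp704 (-0.54, SE 0.12, adjusted p = 0.0471). Zfp704 fell with N2B27 by 0.50 log2 in mutant cells (adjusted p = 0.00209), and in control cells its difference was 0.04. The Zfp719 interaction was not called without the control ESC array numbered 2 (adjusted p = 0.059), the mutant ESC array numbered 2 (0.0934) or 3 (0.0837) or the control N2B27 array numbered 3 (0.0575). That of Zfp704 was lost on leaving out any one of the arrays except the control ESC array numbered 1 and the mutant N2B27 array numbered 3 (adjusted p 0.0594 to 0.19). Zfp980 had the largest interaction value of the 139 genes, 0.89, and was not called.

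The lower-numbered genes Zfp1 to Zfp599 give a measure of what is shared by numbered zinc finger genes. Of 178 measured, 27 rose and 39 fell with N2B27 in control cells (37.1%), and 28 rose and 24 fell in mutant cells (29.2%). Between genotypes 8 were higher and 3 lower in ESC medium (6.18% called, beside 6.14% of all genes). In N2B27 the 9 genes called were all higher (5.06%, beside 5.74% of all genes, 4.1% higher and 1.64% lower). Their median differences with medium were -0.04 and 0.02, beside -0.06 and 0.03 for Zfp600 to Zfp999.

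Genes of the machinery that KRAB zinc finger proteins use were listed as well, and 29 of 33 were measured. The list also held Lin28a and Zfp57, which is itself a KRAB zinc finger gene of the range Zfp1 to Zfp599. With N2B27, 4 rose and 11 fell in control cells (51.7% called, beside 26.1% of all genes). In mutant cells 4 rose and 9 fell (44.8%, beside 25.2% of all genes). Trim28, the corepressor bound by KRAB domains, fell, with -0.66 log2 in control (adjusted p = 0.00162) and -0.54 in mutant cells (adjusted p = 0.00862). Setdb1, which methylates histones at the bound sites, fell too (-0.40 and -0.56 log2). Falls were larger for Dnmt3l, a cofactor of de novo DNA methylation (-3.21 and -1.91), for Tasor of the HUSH complex (-1.61 and -0.73), for the remodeller Smarcad1 (-1.61 and -1.0) and for Zfp57, a KRAB protein that protects imprints (-1.79 and -1.74). Of the genes called higher, Pphln1, another HUSH subunit, rose most, by 1.35 and 1.77. Between genotypes 2 of the 29 were higher and 1 lower in ESC medium (10.3% called, beside 6.14% of all genes). In N2B27 4 were higher and 1 lower (17.2%, beside 5.74% of all genes).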

How the data were processed

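Total RNA was labelled with biotin and hybridised, 1 sample to an array. Per the submitters' processing notes the authors used RMA and Affymetrix Expression Console 1.2, and the deposited table holds centred log2 values per transcript cluster. No source states the log base, which is inferred from the usual output of RMA, nor the centring. The 28815 clusters run from -5.22 to 6.42, and 55.8% hold an exact 0 on at least 1 array, which marks a baseline set per cluster. Brightness and detection cannot be recovered, so no filter on dim probes was possible, and precision is limited by how few arrays there are. Median values over all genes per array lie between -0.0317 and 0.0472. The array-wide root mean square deviation of the member genes from their group means was highest on the mutant N2B27 arrays numbered 1 (0.236) and 2 (0.201) and 0.0868 to 0.172 on the others.

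The platform annotation names 1 gene for 21780 clusters, while 1605 carry several symbols and 5430 carry none. Clusters with 1 symbol were used and averaged per gene. Chromosomes and gene order came from the RefSeq table (GRCm38.p6), matched by Entrez identifier for 21689 clusters; it holds 173 genes of the number range. Group means were fitted over all 4 groups with limma 3.58.1 (lmFit, eBayes) in R 4.3.3, with 7 residual and 3.02 prior degrees of freedom and two-sided tests. The fit was checked on simulated data. Alternatives were other scalings, array weights, another prior, single clusters, the compared groups alone, a block for sample numbers, no chromosome 8, X or Y genes, and each array left out.

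The numbers pair arrays where the correlation of deviations from group means exceeded 0.1 for all 3 numbers, which held between genotypes in N2B27 (0.256, 0.430 and 0.158) and between media in control cells (0.138, 0.181 and 0.131). The other 2 comparisons share only 2 numbers.

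The members, lists and rules were chosen with earlier results of these data known. Named genes are up to 10 called increases and 10 called decreases per pairwise comparison, up to 5 and 5 for the interaction, the called members and both extremes of each genomic run, and a set given whatever their values (Zfp600, Zfp809, Zfp819, Zfp932, Zfp708, Zfp689, Zfp703, Zfp706, Zfp711, Zfp750, Zfp827), of which Zfp932 is not analysed here. Neighbours outside the range, corepressor genes and genes named from the counts of calls were chosen after their values were seen. A planned split by the KRAB domain was not made. Promoters came from the RefSeq promoter table (GRCm38.p6), which holds 121 of the 139 genes. Python 3.11.15 with pandas 2.3.3, Biopython 1.88 and matplotlib 3.10.9 was used.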

Additional observations from a re-analysis of the deposited data

Results flagged for a closer look

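Zfp719 and Zfp704 stand out because the interaction test called their genotype difference as dependent on the medium. They make up 1.44% of the members, beside 2.12% of all genes called, and neither call held under every alternative run. For Zfp719 the genotype difference in N2B27 exceeded that in ESC medium by 0.84 log2 (adjusted p = 0.0197), and all 3 control N2B27 arrays were lower than every other array. For Zfp704 the interaction was -0.54 log2 (adjusted p = 0.0471), with the 2 mutant ESC medium arrays above all others.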

How the results depend on the processing

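Of the named genes that were called, 34 of 37 for medium in control cells, 17 of 38 for medium in mutant cells, 3 of 9 for genotype in N2B27 (Zfp719, Zfp882 and Zfp930), 0 of 2 for genotype in ESC medium and 0 of 2 for the interaction were called under every alternative run, and no value changed sign while called. The count for genotype in ESC medium, 2 genes, became 10 with the replicate block, where only the numbers 2 and 3 are shared, 20 with array weights, 4 with a trended and robust prior and 0 to 6 with 1 array left out. Its median of 0.01 became 0.0216, 0.000916 and, without chromosomes 8, X and Y, -0.00325, and -0.0169 to 0.0117 with 1 array left out. For genotype in N2B27 the 9 genes became 16 with the replicate block, 4 with the compared groups alone, 18 with array weights, 2 of 124 without chromosomes 8, X and Y, and 3 to 9 with 1 array left out. Its median of 0.09 became 0.0582 with quantile normalization, 0.0652 without those chromosomes and 0.0711 to 0.105 with 1 array left out. For medium in mutant cells the 51 genes became 80 with array weights and 23 to 57 with 1 array left out, and the median of 0.03 became -0.00837 with quantile normalization and 0.0132 to 0.0435. For medium in control cells leaving out 1 array gave 40 to 47 genes and medians of -0.0726 to -0.0450. The interaction's 2 genes became 0 with quantile normalization, 10 with array weights, 1 with the other prior, 1 without chromosomes 8, X and Y, and 0 to 3 with 1 array left out, with medians of 0.0422 to 0.110. Among the named genes the block added calls and changed no others. For genotype in N2B27 they were Zfp600, Zfp750, Zfp781, Zfp868 (0.32, adjusted p = 0.0486) and Zfp980. For genotype in ESC medium they were Zfp600 (0.92, adjusted p = 0.0366), Zfp640 (0.98, adjusted p = 0.0121) and Zfp688 (-0.43, adjusted p = 0.0169). For medium in control cells it was Zfp750 (-0.36, adjusted p = 0.0219), and in mutant cells Zfp781 (-0.36, adjusted p = 0.0166) and Zfp869 (0.52, adjusted p = 0.0268). The compared groups alone, quantile normalization or both also ended the mutant medium calls of Zfp628, Zfp653, Zfp706, Zfp715, Zfp746, Zfp763, Zfp777, Zfp788, Zfp799, Zfp871, Zfp942, Zfp946, Zfp975 and Zfp982. The causes were not tested. Groups of 2 and 3 arrays limit all of these values. The shares of all genes called under the alternatives are not given here, so a changed count of members may not be particular to them.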
